A study of Mus musculus with 2 samples.

Results

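The nuclear-encoded genes of oxidative phosphorylation were followed across immune cell types of the mouse lung, in a library from mice that had inhaled diesel exhaust particles (DEP) and a library from mice that had not. Members were taken by symbol: the prefixes Ndufa, Ndufb, Ndufc, Ndufs, Ndufv, Uqcr, Cox4i, Cox5, Cox6, Cox7, Cox8 and Atp5 matched 89 genes of the 31053 in the tables, and 82 of these were kept. Left out were Cox6a2, by name, and genes with fewer than 50 counted molecules in both libraries together. The member nearest to that minimum was Cox7a1 with 458 molecules, and the genes just below it were Cox4i2 with 30, Cox8b with 24 and Ndufa4l2 with 13. By name the members fell into 37 complex I genes, 8 complex I assembly factors, 8 complex III genes, 13 complex IV genes and 16 complex V genes. All 82 are annotated as protein-coding. In the annotation, 12 of them overlap another gene on the same strand, among them Ndufa13, Ndufc2, Cox4i1, Cox7c, Atp5b, Atp5c1 and Atp5g2, and their counts are less certain.

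Oxidative phosphorylation makes ATP in the inner mitochondrial membrane. Complexes I, III and IV pass electrons from NADH to oxygen and pump protons, and complex V, the ATP synthase, uses the returning protons to make ATP. Most of the subunits are encoded in the nucleus, made in the cytosol and imported, while a small core set is encoded by mitochondrial DNA. Alveolar macrophages are known for a strong dependence on mitochondrial and lipid metabolism, and mature neutrophils for few mitochondria and a reliance on glycolysis.

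The DEP-exposed library came from mice labelled Ccr2-/- (KO), CD45.3+, that inhaled DEP at 500 µg/m³ for 1 hour a day on 5 days a week during 2 weeks. The control library came from mice labelled Ccr2-/- (KO), CD45.1+, with no exposure. The series' design text also names C57BL/6J wild-type animals, so the genotype of the 2 libraries rests on the labels, and age and the number of animals behind each library are not given. Both hold CD45+ cells sorted from perfused, enzyme-digested lungs and sequenced with a 10x Genomics 3′ kit, which counts each transcript molecule once by a unique molecular identifier (UMI). Because the libraries also carry different CD45 labels, exposure, CD45 label and library cannot be told apart.

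The tables held 67030914 UMIs in 10000 barcodes of the DEP-exposed library and 62047730 UMIs in 10312 barcodes of the control library, and members took 1.72% and 1.62% of them. After filtering, 9396 DEP-exposed and 9691 control cells remained, and 23 barcodes occurred in both libraries. A cell was given a type when it held UMIs of at least 3 markers of that type and at least 2 more than of any other, from 14 marker lists that contain no member. This left 11.9% of DEP-exposed and 13.3% of control cells without a type. The 9 types with at least 50 cells in each library were compared: alveolar macrophages (567 DEP-exposed and 453 control cells), interstitial macrophages (89 and 112), classical monocytes (556 and 342), nonclassical monocytes (135 and 157), type 1 dendritic cells (157 and 132), neutrophils (2738 and 2894), NK cells (635 and 702), T cells (1444 and 1476) and B cells (1786 and 1989). In each of them, at least 1 of its own markers and no marker of another type stood among the 10 genes highest over the other types. Since the types were gated on these same markers, this ranking follows from the gate and cannot show how pure the types are.

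UMIs were summed per type and library and expressed per 1000000 UMIs of that sum (counts per 1000000, CPM), so a level is a share of a cell type's counted RNA and not an amount per cell. With 1 library per group there is no spread between animals, and no test was made. Intervals are exact 95% intervals for counting error alone. A gene is called higher or lower where the log2 of its CPM ratio lies beyond 0.32 in either direction, which is a size and not a test, among genes with at least 50 UMIs in the 2 sums together.

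Classical monocytes, alveolar macrophages and NK cells had the highest summed level of the 82 genes, and neutrophils had the lowest in both libraries. Classical monocytes had 23467 CPM (95% interval 23355 to 23579) in the DEP-exposed library and 20307 CPM (20148 to 20467) in the control library. Alveolar macrophages, which clear particles from the air sacs, had 22004 CPM in the DEP-exposed and 20887 CPM in the control library. NK cells, which kill virus-infected and tumour cells, had 20623 CPM in the DEP-exposed and 19844 CPM in the control library. Classical monocytes were the highest in the DEP-exposed library and alveolar macrophages in the control library. With mitochondrial-encoded and cytosolic ribosomal genes left out of the denominator, T cells came second behind classical monocytes, at 27435 CPM in the DEP-exposed and 26578 CPM in the control library, with NK cells at 27093 and 26093 CPM and alveolar macrophages at 26641 and 25181 CPM.

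Type 1 dendritic cells, which present antigen to cytotoxic T cells, held a middle place with 18858 CPM in the DEP-exposed and 17946 CPM in the control library. In the DEP-exposed and control libraries, nonclassical monocytes had 17186 and 15587 CPM, interstitial macrophages 16584 and 15137 CPM and T cells 16086 and 16333 CPM. These 3 types lay close together. T cells were the lowest of the 3 in the DEP-exposed library and the highest of the 3 in the control library, and the control intervals of nonclassical monocytes and interstitial macrophages overlapped.

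B cells had 13995 CPM in the DEP-exposed and 13666 CPM in the control library, and neutrophils had 8606.5 CPM (8545.6 to 8667.8) and 9547.9 CPM (9482.7 to 9613.5). The gap below B cells was larger than the difference between libraries in either type. Neutrophils were also the shallowest type, with a median of 2947.5 UMIs per DEP-exposed and 2722 per control cell, against 15709 and 17860 in alveolar macrophages, and the part of depth in these levels was not tested. In single cells, the median share of UMIs from members was 0.834% in DEP-exposed and 0.913% in control neutrophils, and 2.32% in DEP-exposed and 2.04% in control classical monocytes.

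**Figure D1:**
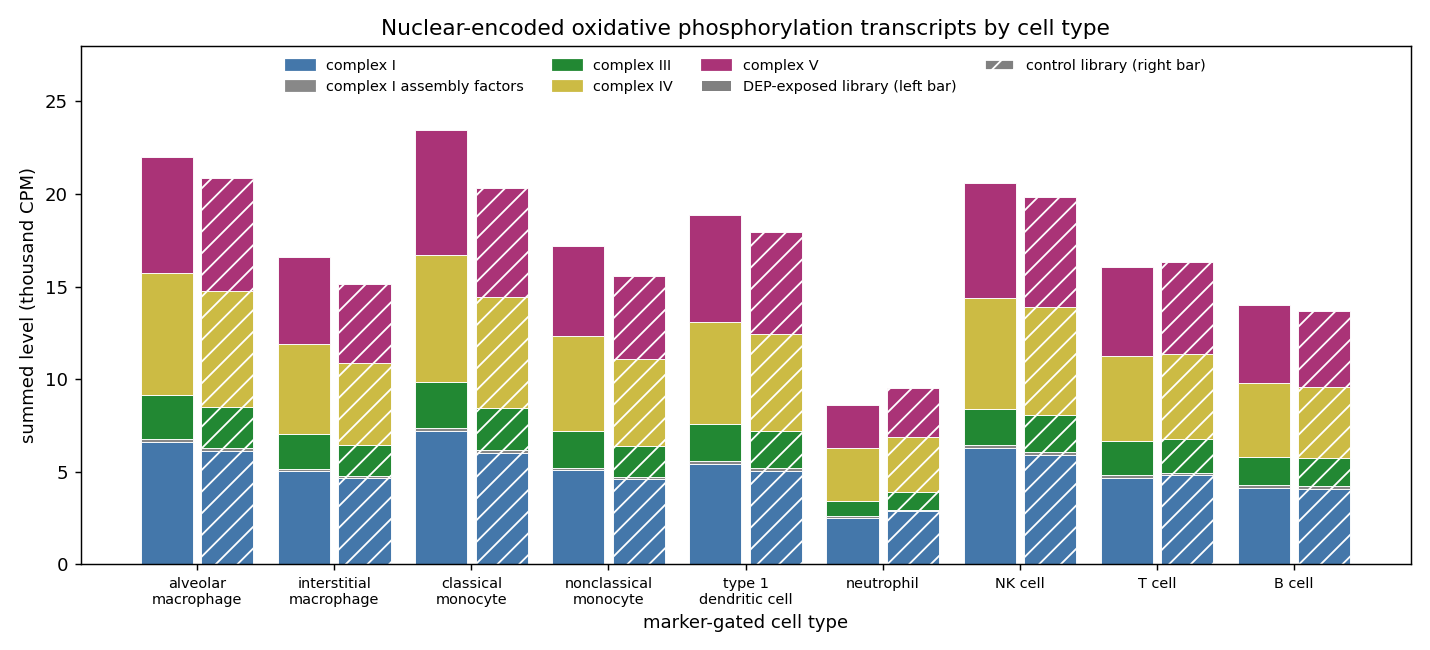
Summed CPM of the 82 genes (vertical axis, in units of 1000 CPM) in 9 cell types, stacked by complex, with the DEP-exposed library as the left, solid bar and the control library as the right, hatched bar. Classical monocytes reach 23467 CPM in the DEP-exposed and 20307 CPM in the control library and neutrophils 8606.5 and 9547.9 CPM, while the proportions of the complexes look alike in every bar.

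The complexes kept nearly the same proportions in every type, although the total differed. Complex I took 28.1 to 30.7% of the member UMIs over the 9 types and both libraries, complex IV 27.8 to 33.4%, complex V 27.2 to 30.8% and complex III 9.30 to 11.6%. The assembly factors, which help build complex I and are not part of it, took 0.667 to 1.01%.

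Each gene was next set against the mean of the other 8 types, and called where it passed the same size in the same direction in both libraries. Of the 82 genes, 45 were higher in alveolar macrophages and 2 lower, against a background of 36.5% higher and 31.8% lower among all 12722 genes with enough UMIs. In classical monocytes 36 were higher and 4 lower, where the background was 11.9% higher and 50.2% lower. In NK cells 29 were higher and 4 lower, with 34.3% and 29.7% as background, so the count of higher members there was near the background.

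The other types had few higher members. Type 1 dendritic cells had 14 higher and 3 lower (background 13.7% and 51.2%), interstitial macrophages 5 and 10 (18.9% and 36.8%), nonclassical monocytes 3 and 12 (13.4% and 38.9%), and T cells 5 and 10 (27.2% and 35.4%). B cells had 3 higher and 37 lower, with a background of 32.1% and 36.9%. In neutrophils 1 gene was higher and 70 were lower, with a background of 14.1% and 71.8%: most genes of any kind were lower there. With mitochondrial-encoded and cytosolic ribosomal genes left out of the denominator, T cells had 28 higher members and 3 lower (background under that denominator 44.1% and 27.1%), and B cells 5 and 22 (39.5% and 32.4%), so the share of higher members was below the background in both.

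At 1.5-fold over or under the other types, alveolar macrophages had 24 higher members and 1 lower (background 26.6% and 26.4%), classical monocytes 11 and 2 (6.93% and 39.4%) and NK cells 6 and 2 (21.4% and 25.3%). Type 1 dendritic cells had 2 and 1 (9.26% and 41.0%), interstitial macrophages 2 and 3 (13.8% and 27.7%), nonclassical monocytes 2 and 3 (8.52% and 31.5%), T cells 1 and 4 (17.6% and 29.3%), B cells 3 and 13 (22.3% and 31.0%) and neutrophils 1 and 67 (11.3% and 66.2%). In classical monocytes the share of members higher at this size was above the background, and in NK cells below it.

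Complex I is the entry point for electrons from NADH. Its 37 genes gave 21 higher in alveolar macrophages, 19 in classical monocytes and 13 in NK cells (background 36.5%, 11.9% and 34.3%). In neutrophils 31 were lower (background 71.8%). The NK cell count was thus near the background. Ndufa4, which carries a complex I name and is now known as a subunit of complex IV, had 564 CPM in DEP-exposed and 514 CPM in control NK cells. In DEP-exposed and control cells it had 523 and 495 CPM in alveolar macrophages, 229 and 205 CPM in type 1 dendritic cells and 70.1 and 81.0 CPM in neutrophils. Outside neutrophils, type 1 dendritic cells thus had the lowest Ndufa4 level in both libraries.

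Ndufs1, the largest iron-sulphur subunit of complex I, had 44.5 CPM in DEP-exposed and 50.7 CPM in control alveolar macrophages and 11.3 and 10.6 CPM in neutrophils. Ndufa8, an accessory subunit, had 154 and 103 CPM in classical monocytes and 54.0 and 46.6 CPM in B cells. Both genes were at their lowest in the same types in both libraries. Some complex I genes were not called lower in neutrophils: Ndufa13, also known as Grim19, had 229 CPM in DEP-exposed and 244 CPM in control neutrophils, within the 208 to 470 CPM seen in all the other types, although the DEP-exposed value was 0.700 times the mean of the other types and past the called size. Others were far lower: Ndufc2 had 9.01 CPM in DEP-exposed and 16.1 CPM in control neutrophils, while the other 8 types ran from 71.8 to 228 CPM.

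The assembly factors did not share 1 order of types. Ndufaf7, a methyltransferase that modifies a complex I core subunit, was the 1 gene called higher in neutrophils, with 29.0 CPM in the DEP-exposed and 29.6 CPM in the control library. It had 45.4 and 36.7 CPM in classical monocytes, but 9.40 and 6.79 CPM in alveolar macrophages. Its order of types was therefore unlike that of complex I itself.

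Ndufaf4, an early-acting assembly factor, went the other way, with 0.676 CPM in DEP-exposed and 1.63 CPM in control neutrophils and 31.6 and 31.8 CPM in B cells. It was also low in classical monocytes, at 6.57 and 5.20 CPM. Ndufaf6 was highest in type 1 dendritic cells, at 12.1 CPM in the DEP-exposed and 14.8 CPM in the control library. Ndufaf3 stayed between 12.3 and 35.2 CPM in all types of both libraries. Ndufaf8 was lowest in neutrophils, at 16.8 CPM in the DEP-exposed and 23.4 CPM in the control library.

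Complex III passes electrons from ubiquinol to cytochrome c. Of its 8 genes, 5 were higher in alveolar macrophages, 4 in classical monocytes and 7 lower in neutrophils (background 36.5%, 11.9% and 71.8%). Uqcrb, the ubiquinone-binding subunit, had 418 CPM in DEP-exposed and 368 CPM in control alveolar macrophages and 32.6 and 40.0 CPM in neutrophils. Uqcrq kept more of its level in neutrophils, at 212 CPM in the DEP-exposed and 269 CPM in the control library, against 159 and 170 CPM in B cells. Uqcrh, the hinge protein, was as high in T cells (820 CPM DEP-exposed and 775 CPM control) as in classical monocytes (789 and 838 CPM). Uqcrc2, a core subunit, ran from 27.0 CPM in DEP-exposed neutrophils to 117 CPM in DEP-exposed alveolar macrophages. Uqcr11 was highest in alveolar macrophages, at 369 CPM in the DEP-exposed and 377 CPM in the control library, and was 87.6 and 93.2 CPM in B cells.

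Complex IV, cytochrome c oxidase, reduces oxygen, and several of its subunits exist as tissue isoforms. Cox6b2, known as the testis isoform of subunit 6B, had 96.4 CPM in DEP-exposed and 94.5 CPM in control alveolar macrophages. No other type exceeded 21.5 CPM, the value in DEP-exposed classical monocytes, and neutrophils had 0.451 CPM in the DEP-exposed and 1.63 CPM in the control library. Its sister Cox6b1, the widely expressed isoform, had 694 and 661 CPM in alveolar macrophages and ran from 274 to 625 CPM in the other 8 types. Cox7a1, the heart and muscle isoform of subunit 7A, was low everywhere and highest in alveolar macrophages, at 10.8 CPM in each library. The heart isoforms Cox6a2 and Cox8b and the lung-enriched Cox4i2 are not members.

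Cox7a2, the isoform of most tissues, ran from 216 CPM in DEP-exposed neutrophils to 473 CPM in control NK cells. Cox7a2l, which helps join complexes III and IV into supercomplexes, had 549 CPM in DEP-exposed and 479 CPM in control T cells, but 278 and 274 CPM in NK cells. T and NK cells were thus apart for Cox7a2l, in the opposite order to their summed member level with all UMIs in the denominator. Without mitochondrial-encoded and cytosolic ribosomal genes there, the summed level was also higher in T cells. It was 27435 CPM in T and 27093 CPM in NK cells of the DEP-exposed library, and 26578 and 26093 CPM in the control library. Cox5a had 644 CPM in DEP-exposed and 619 CPM in control alveolar macrophages, above every other type in both libraries, where the highest was 394 CPM in DEP-exposed classical monocytes. Its partner Cox5b was highest in classical monocytes of the DEP-exposed library, at 528 CPM, with 502 CPM in DEP-exposed NK cells. In the control library the order was reversed, with 454 CPM in NK cells and 432 CPM in classical monocytes.

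Cox8a, the smallest nuclear subunit, was not lower in neutrophils, at 749 CPM in the DEP-exposed and 712 CPM in the control library, and was highest in NK cells at 1109 and 986 CPM. The large-count subunits Cox4i1, Cox7c and Cox6a1 were lower in neutrophils. Cox4i1 had 453 CPM in DEP-exposed and 498 CPM in control neutrophils, and 1275 and 1221 CPM in classical monocytes. Cox7c had 203 and 209 CPM in neutrophils, and Cox6a1 181 and 204 CPM. The subunits of this enzyme thus differed in how far neutrophils lay below the other types.

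Complex V makes ATP. Of its 16 genes, 8 were higher in alveolar macrophages, 7 in classical monocytes, 9 in NK cells, and 14 lower in neutrophils. The background was 36.5%, 11.9% and 34.3% higher, and 71.8% lower in neutrophils. The c subunit that forms the rotating ring is made from 3 genes that encode the same mature protein. Atp5g3 had 361 CPM in DEP-exposed and 387 CPM in control alveolar macrophages and 29.6 and 35.9 CPM in neutrophils, and its highest value elsewhere was 229 CPM in DEP-exposed NK cells. Atp5g2 was flatter outside neutrophils, between 303 and 535 CPM, and had 50.8 CPM in DEP-exposed and 73.2 CPM in control neutrophils. Atp5g1 had 301 and 262 CPM in alveolar macrophages and 21.9 and 29.0 CPM in neutrophils. All 3 genes of the c subunit were therefore low in neutrophils.

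Atp5a1 and Atp5b were low in neutrophils as well. Atp5a1 had 50.4 CPM (DEP-exposed) and 67.5 CPM (control), and Atp5b 114 and 137 CPM. The small subunits Atp5l and Atp5e were not called lower, since they did not pass the size in both libraries. Atp5l had 594 CPM in DEP-exposed and 625 CPM in control neutrophils and 463 and 469 CPM in B cells. Atp5e, the epsilon subunit of the central stalk, had 528 CPM in DEP-exposed and 637 CPM in control neutrophils and 680 and 648 CPM in B cells. The DEP-exposed neutrophil value was the lowest Atp5e level of all types and was past the called size, at 0.665 times the mean of the other types, against 0.844 times in the control library. Atp5h, the d subunit of the side stalk, was highest in NK cells, at 766 CPM in the DEP-exposed and 718 CPM in the control library. Atp5s was the smallest complex V gene and stayed at or under 8.25 CPM in every type.

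**Figure D2:**
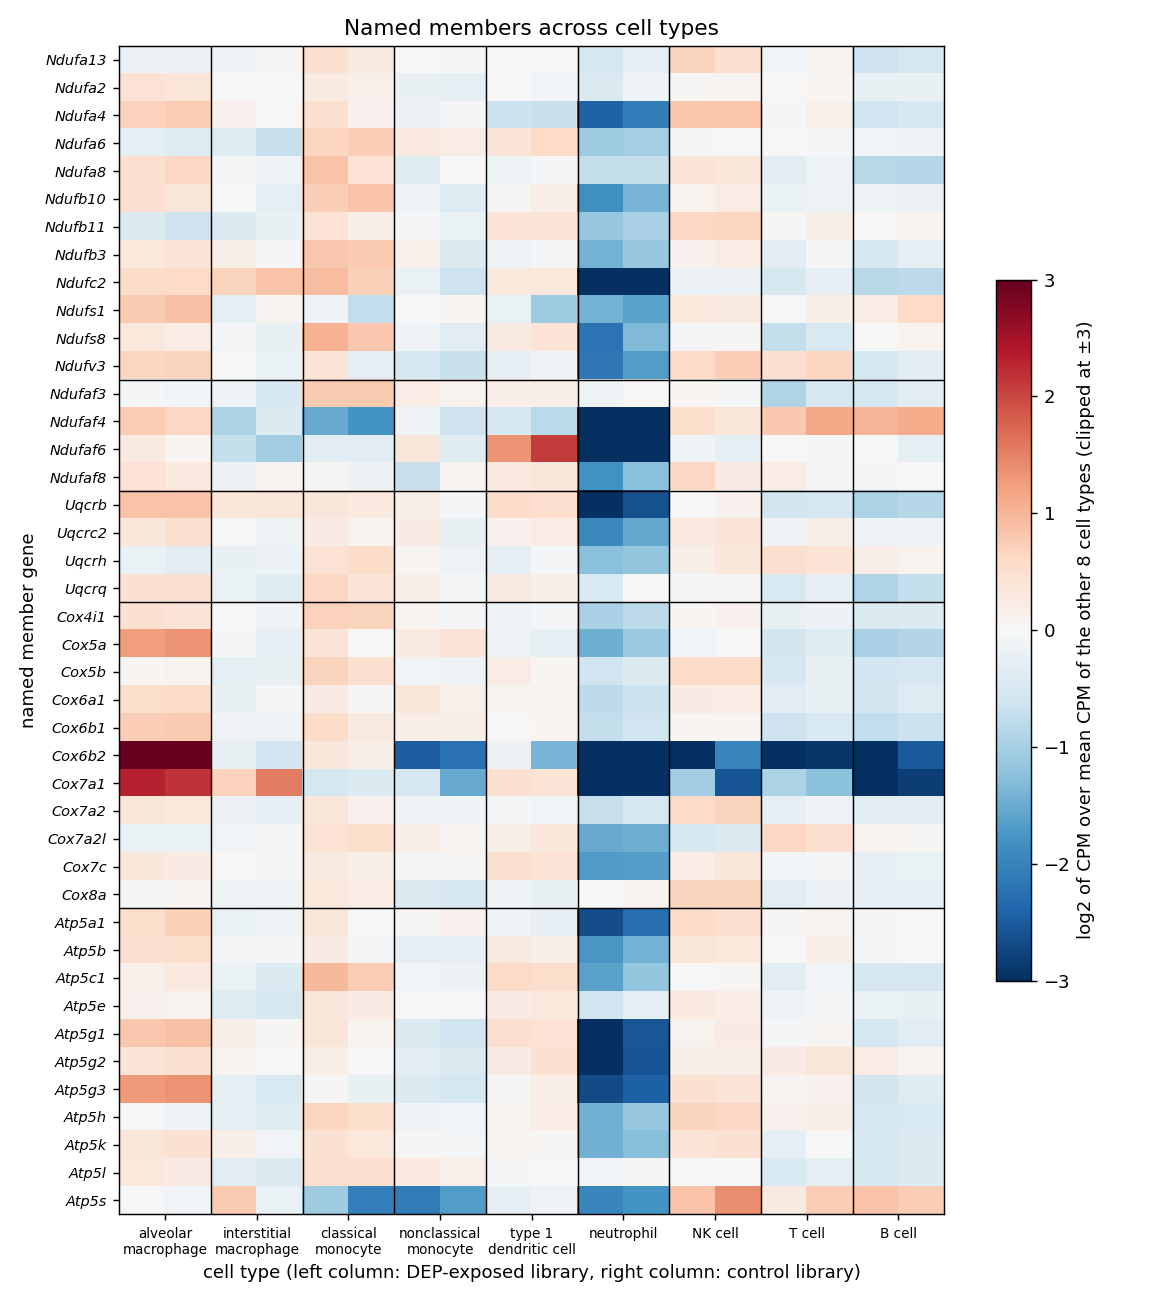
Log2 of the CPM of each named gene over its mean in the other 8 cell types (colour, limited to 3 in either direction, with the ratio held at a small floor), with the DEP-exposed library as the left and the control library as the right column of each type. Cox6b2, at 96.4 and 94.5 CPM in alveolar macrophages, and the blue neutrophil columns stand out, with Cox8a at 749 and 712 CPM as an exception among neutrophils.

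Promoters of the genes were read from RefSeq (GRCm38.p6, 250 bases before to 50 bases after the gene's start), and 69 of the 82 genes had one. Nuclear respiratory factor 1 (NRF-1) is a known activator of many respiratory chain genes. Its motif, searched on both strands as GCGCA, any base, then GCGC, occurred in 17 of the 69 genes (24.6%), and in 7.17% of 17492 protein-coding genes. The Ets-type motif CCGGAAG, which the GABP factor (NRF-2) binds, occurred in 23.2% against 12.9%, and the YY1 motif AAGATGGC in 14.5% against 3.57%. Matches of different motifs could share only bases at their ends. By complex, the NRF-1 motif was in 6 of 13 complex V genes, 7 of 33 complex I genes, 2 of 7 assembly factors, 1 of 5 complex III genes and 1 of 11 complex IV genes.

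The promoters of 3 genes are shown. Ndufa8 and Atp5g2 were picked because they hold the NRF-1 motif, after Atp5g1 and Ndufs8, the first choices, proved to have none. Cox6b2 is shown for its level in alveolar macrophages. Capitals mark the NRF-1 match, which begins 30 bases before the start of Ndufa8, on the opposite strand of the gene, and 42 bases before the start of Atp5g2. Cox6b2 has no match of the 3 motifs in this window. The windows are Ndufa8 at chr2:36049289-36049588, Atp5g2 at chr15:102670998-102671297 and Cox6b2 at chr7:4753045-4753344, all on the minus strand and written 5′ to 3′ along the gene.
Ndufa8: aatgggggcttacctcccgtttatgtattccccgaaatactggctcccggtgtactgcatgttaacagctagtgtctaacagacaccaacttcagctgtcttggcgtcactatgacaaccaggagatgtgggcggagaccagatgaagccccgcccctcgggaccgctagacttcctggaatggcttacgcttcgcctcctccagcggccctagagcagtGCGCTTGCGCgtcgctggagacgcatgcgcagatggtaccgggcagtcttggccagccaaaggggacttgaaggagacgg
Atp5g2: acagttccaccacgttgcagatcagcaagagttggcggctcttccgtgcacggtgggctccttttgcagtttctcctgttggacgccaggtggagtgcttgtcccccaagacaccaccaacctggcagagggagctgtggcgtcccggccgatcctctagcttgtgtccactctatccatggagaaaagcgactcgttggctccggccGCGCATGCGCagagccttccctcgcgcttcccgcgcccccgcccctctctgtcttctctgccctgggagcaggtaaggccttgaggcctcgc
Cox6b2: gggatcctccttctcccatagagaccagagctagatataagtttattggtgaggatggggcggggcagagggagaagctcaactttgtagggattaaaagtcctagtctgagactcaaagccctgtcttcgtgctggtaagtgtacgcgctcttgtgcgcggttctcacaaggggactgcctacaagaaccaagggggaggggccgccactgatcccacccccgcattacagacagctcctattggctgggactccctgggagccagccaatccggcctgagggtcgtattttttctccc

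The DEP-exposed library was compared with the control library within each type. The summed level of the 82 genes was higher in 7 types and lower in 2. The log2 ratio was 0.21 (95% interval 0.20 to 0.22) in classical monocytes, 0.14 in nonclassical monocytes, 0.13 in interstitial macrophages, 0.0752 in alveolar macrophages, 0.0715 in type 1 dendritic cells, 0.0555 in NK cells and 0.0343 in B cells. It was -0.0219 in T cells and -0.15 (-0.16 to -0.14) in neutrophils. No interval included 0, but these intervals hold no spread between animals. The size depended on the processing in some types: it was 0.040 in nonclassical monocytes with the strict gate, 0.018 in type 1 dendritic cells with mitochondrial-encoded and cytosolic ribosomal genes left out of the denominator, and in B cells 0.0058 with a mitochondrial limit of 5% and 0.10 with the changed denominator. Without classical monocytes that held a UMI of Lrg1, Saa3 or Lcn2, it was 0.13 in that type. In T cells the direction was not kept: it was 0.046 with mitochondrial-encoded and cytosolic ribosomal genes left out of the denominator, 0.019 without cycling cells and 0.0089 with each cell weighing the same.

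**Figure D3:**
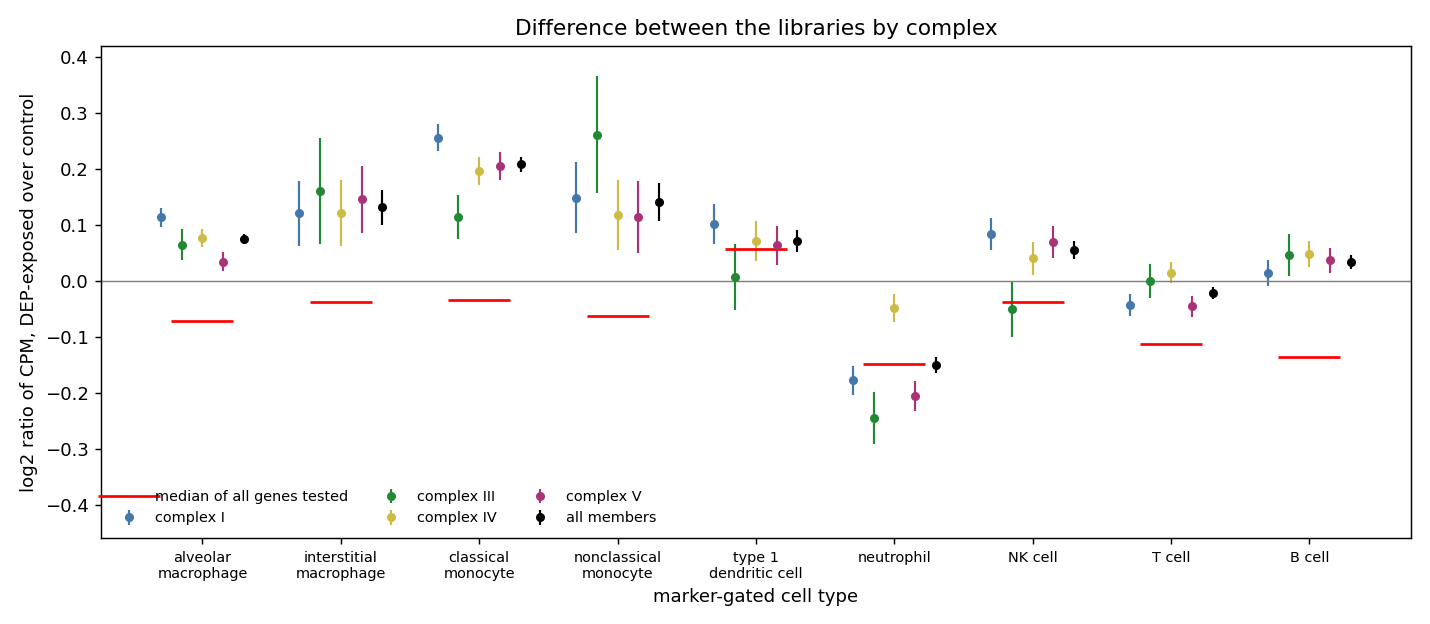
Log2 ratio of CPM, DEP-exposed over control (vertical axis), for the sum of each complex and of all 82 genes in 9 cell types, with exact 95% counting intervals as bars and, in red, the median of all genes with at least 50 UMIs. Assembly factors are not drawn. The sum of all members is highest in classical monocytes at 0.21 and lowest in neutrophils at -0.15.

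Classical monocytes are known to be recruited from the blood in inflammation, which was not measured here. Ccr2 is among the 6 markers of their gate, and both libraries are labelled Ccr2-/-. Of 78 members with enough UMIs in classical monocytes, 28 were higher in the DEP-exposed library and 0 lower. Of all 7909 such genes, 17.8% were higher and 21.1% lower. The median log2 ratio of the members was 0.28, and that of all genes was -0.03. By complex, 19 of 37 complex I genes were higher, 2 of 6 assembly factors, 1 of 8 complex III, 3 of 12 complex IV and 3 of 15 complex V genes. The summed log2 ratio was 0.26 (0.23 to 0.28) for complex I, 0.21 (0.18 to 0.23) for complex V, 0.20 (0.17 to 0.22) for complex IV and 0.11 (0.07 to 0.15) for complex III.

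Ndufv3, an accessory subunit of the NADH-binding module, had 158 CPM in DEP-exposed and 101 CPM in control classical monocytes, a log2 ratio of 0.65. Ndufa8, whose promoter is shown above, had 154 and 103 CPM there, a log2 ratio of 0.57. Both lay past the called size.

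Among the assembly factors, Ndufaf1 and Ndufaf2 both had a log2 ratio of 0.94, at low levels of 5.87 CPM (DEP-exposed) and 2.92 CPM (control) for Ndufaf1 and 10.2 and 5.20 CPM for Ndufaf2. Cox5a had 394 and 282 CPM, a log2 ratio of 0.48. Atp5g1 had 233 and 168 CPM, a log2 ratio of 0.47. These genes stood above the median of the members.

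Not all members were higher. Ndufa6 had 419 CPM in DEP-exposed and 466 CPM in control classical monocytes, a log2 ratio of -0.15, and Uqcrh 789 and 838 CPM, a log2 ratio of -0.09. Ndufa6 and Uqcrh were the lowest of the members in this type and neither passed the called size. Cox4i1 differed by a log2 ratio of 0.06.

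Classical monocytes also differed between the libraries in other ways. Their median depth was 12462 UMIs per DEP-exposed and 8916.5 per control cell. A UMI of the acute-phase genes Lrg1, Saa3 or Lcn2 was present in 285 DEP-exposed cells (51.3%) and 23 control cells (6.73%). Member levels were 24354 CPM in DEP-exposed cells with such a UMI and 22178 CPM in DEP-exposed cells without one, and 20486 and 20293 CPM in control cells with and without one. Among cells without one, the log2 ratio of the summed members was 0.13, and 9 of 75 members were higher and 0 lower, where 12.4% of all 6761 genes with enough UMIs were higher and 16.4% lower. The share of higher members among those cells was thus near the background. Markers of B, T, NK and epithelial cells together had 37.2 CPM in DEP-exposed and 101 CPM in control classical monocytes. Marker lists of other cells went both ways between these libraries. Neutrophil markers had 262 and 246 CPM, alveolar macrophage markers 26.3 and 14.9 CPM and group 2 innate lymphoid cell markers 76.7 and 36.7 CPM. Nonclassical monocyte markers had 174 and 205 CPM, and interstitial macrophage markers 43.9 and 47.7 CPM. The parts of depth and of these markers in the difference were not tested.

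Neutrophils, the short-lived phagocytes of acute inflammation, had 0 higher and 22 lower of 74 members in the DEP-exposed library. The background was 7.66% higher and 30.0% lower of 7636 genes, so the share of lower members was near that of all genes. The members' median log2 ratio was -0.22 and that of all genes -0.15. Complex III had a summed log2 ratio of -0.245, complex V of -0.21, complex I of -0.18 and complex IV of -0.0481. None of the 11 complex IV genes with enough UMIs was called lower, while 13 of 37 complex I genes, 5 of 15 complex V genes, 3 of 8 complex III genes and 1 of 3 assembly factors were.

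Ndufa5 had 4.17 CPM in DEP-exposed and 8.16 CPM in control neutrophils, a log2 ratio of -0.96. Ndufc2 had 9.01 and 16.1 CPM, a log2 ratio of -0.83, and Ndufs8, an iron-sulphur subunit, 19.6 and 31.6 CPM, a log2 ratio of -0.69. These were already among the genes with low neutrophil levels. Cox8a, at 749 and 712 CPM, had a log2 ratio of 0.07 and Ndufa8, at 58.5 and 50.5 CPM, one of 0.21.

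DEP-exposed and control neutrophils differed in markers of other cells. Markers of B, T, NK and epithelial cells together had 108 CPM in DEP-exposed and 595 CPM in control neutrophils, of which the 5 epithelial markers had 0.901 CPM in the DEP-exposed library, where 2 of them were at 0, and 343 CPM in the control library. Of the 17 marker lists of other cells, 13 were lower in DEP-exposed neutrophils. The others were higher, among them the 2 largest, nonclassical monocyte (1642.9 CPM DEP-exposed and 1459.8 CPM control) and classical monocyte markers (506 and 369 CPM). Interstitial macrophage markers had 42.8 and 33.0 CPM and erythroid markers 0.225 and 0.117 CPM. Without the cells that held a UMI of those B, T, NK or epithelial markers, a restriction chosen after seeing the data, members had 8544.1 CPM in 2266 DEP-exposed and 9405.8 CPM in 2044 control neutrophils, a log2 ratio of -0.14, and 19 of 74 members were lower and 0 higher, where 23.8% of all genes were lower and 9.36% higher. With the loose gate 6 of 74 members were lower and 0 higher, where 25.8% of all genes were lower and 7.91% higher, so the share of lower members was then below the background.

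**Figure D4:**
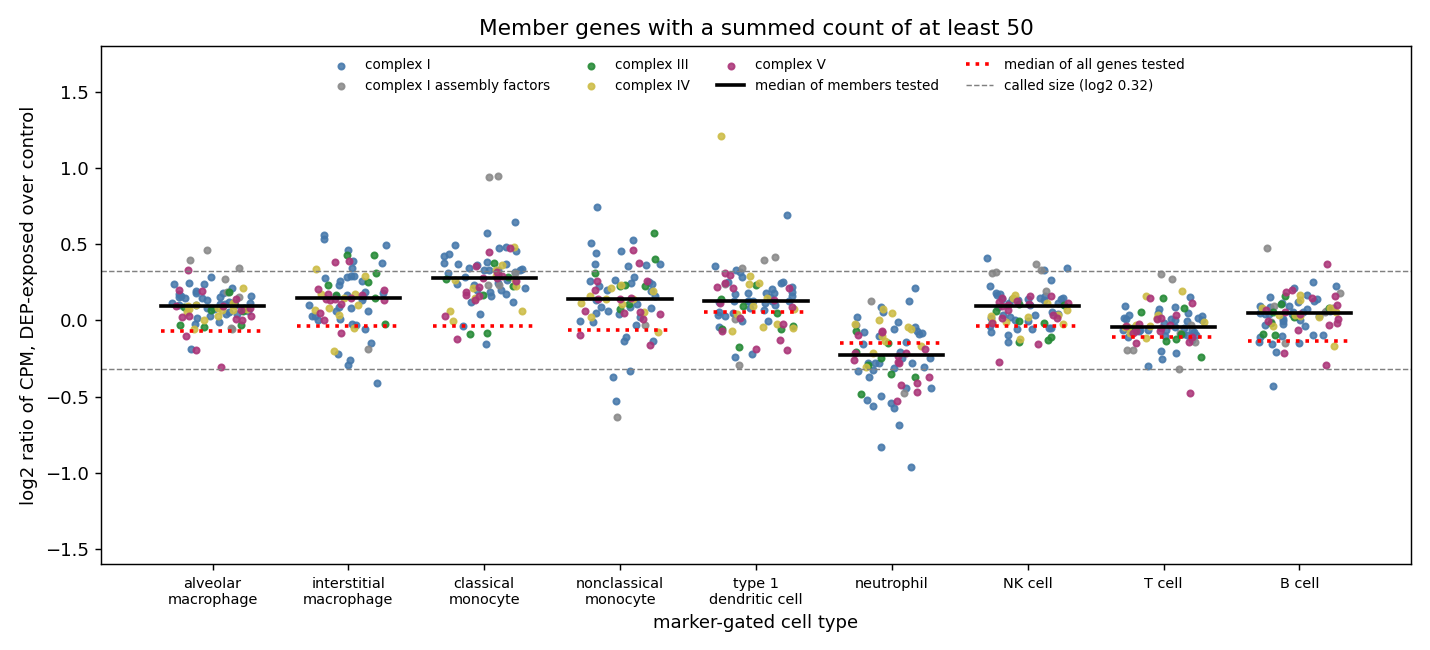
Log2 ratio of CPM, DEP-exposed over control (vertical axis), for each member with at least 50 UMIs in 9 cell types (points, coloured by complex, spread sideways for visibility), with the median of the members (black bar), the median of all genes (red dots) and the called size of 0.32 (dashed lines). Members lie above the all-gene median in classical monocytes, at 0.28 against -0.03, and below it in neutrophils, at -0.22 against -0.15.

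Nonclassical monocytes, which patrol the vessel wall, had 13 higher and 4 lower of 73 members, where 12.6% and 21.8% of all genes were. Interstitial macrophages, the macrophages of the lung tissue itself, had 12 higher and 1 lower of 72 members (background 13.4% and 20.2%). In both types the share of higher members was only slightly above the background. The member medians were 0.14 and 0.15, and the medians of all genes -0.06 and -0.04. In nonclassical monocytes Ndufb3 had 154 CPM in the DEP-exposed and 91.4 CPM in the control library, a log2 ratio of 0.74, and Ndufs8 had 77.4 and 60.1 CPM. In interstitial macrophages Ndufb3 had 159 and 115 CPM, a log2 ratio of 0.46, and Atp5c1, the gamma subunit of the central stalk, 245 and 187 CPM, a log2 ratio of 0.39. These 2 types rest on few cells and on the fewest UMIs of the types compared. Markers of B, T, NK and epithelial cells together had 61.4 CPM in DEP-exposed and 164 CPM in control nonclassical monocytes. Of these, NK markers had 11.4 and 100 CPM and B markers 45.5 and 46.3 CPM. Classical monocyte markers there had 427 and 346 CPM, and neutrophil markers 543 and 592 CPM. In interstitial macrophages the B, T, NK and epithelial markers together had 43.6 CPM (DEP-exposed) and 106 CPM (control). Nonclassical monocyte markers there had 36.5 and 20.3 CPM, and classical monocyte markers 1448.1 and 2120.5 CPM. The part of all these markers in the member values was not tested.

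Alveolar macrophages had 4 higher and 0 lower of 82 members, where 5.25% and 12.8% of all genes were, with medians of 0.09 for the members and -0.07 for all genes. Ndufb11 had 169 CPM in DEP-exposed and 138 CPM in control alveolar macrophages, a log2 ratio of 0.29, and Ndufb10 207 and 175 CPM, a log2 ratio of 0.24. Both are accessory subunits of the membrane arm of complex I. Atp5k had 250 and 310 CPM, a log2 ratio of -0.31, and Atp5a1 393 and 450 CPM, a log2 ratio of -0.19. No gene of complexes I, III or IV was called here. Cells with UMIs of at least 3 cycling markers made up 5.47% of DEP-exposed and 9.27% of control alveolar macrophages, and their part in these values is covered by the alternative without cycling cells.

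Atp5k was called lower in T cells and neutrophils, and its log2 ratio was below 0 without passing the called size in several other types. The log2 ratio was -0.48 in T cells (168 CPM DEP-exposed and 234 CPM control), -0.37 in neutrophils, -0.29 in B cells, -0.27 in NK cells and -0.19 in type 1 dendritic cells, and it was about 0 in interstitial macrophages at 223 and 222 CPM. Ndufa3 did not pass the called size, with a log2 ratio of -0.30 in T cells (194 CPM DEP-exposed and 239 CPM control) and -0.28 in neutrophils (223 and 271 CPM). Ndufa3, like Ndufa5, Ndufaf1, Ndufaf2, Ndufaf7 and Uqcr11, was chosen for mention after its values were seen.

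In lymphocytes and dendritic cells few members passed the fold. Type 1 dendritic cells had 7 higher and 0 lower of 78 (background 19.3% and 9.89%), NK cells 5 and 0 of 77 (9.31% and 14.6%), T cells 0 and 1 of 80 (4.57% and 18.4%), and B cells 2 and 1 of 80 (4.64% and 22.1%). The member medians were 0.13, 0.09, -0.05 and 0.05 in these types, beside medians of all genes of 0.06, -0.04, -0.11 and -0.14. In type 1 dendritic cells Cox6b2 had 15.8 CPM in the DEP-exposed and 6.67 CPM in the control library, a log2 ratio of 1.21 at low counts. The share of cycling cells was 21.0% of DEP-exposed and 12.9% of control type 1 dendritic cells.

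A larger size of 1.5-fold left few members in the comparison of the libraries. Classical monocytes had 3 higher and 0 lower (background 6.76% and 6.66%), so the members there were below the background at this size: many of them differed by a modest amount and few by a large one. Neutrophils had 0 higher and 3 lower (2.58% and 12.6%), type 1 dendritic cells 2 and 0 (6.11% and 2.42%) and nonclassical monocytes 1 and 1 (3.81% and 7.49%). No member passed it in alveolar macrophages (1.3% and 3.12%), interstitial macrophages (3.38% and 7.7%), NK cells (2.16% and 3.29%), T cells (1.35% and 4.8%) or B cells (0.922% and 5.92%).

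Other lists of mitochondrial and metabolic genes were set beside the members. The background in classical monocytes was 17.8% of all genes higher and 21.1% lower. In classical monocytes 49 of 74 mitochondrial ribosome genes were higher and 0 lower, with a median log2 ratio of 0.39, and 7 of 13 glycolysis genes were higher and 1 lower, with a median of 0.35. The tricarboxylic acid cycle had a median of 0.03 there with 5 of 15 genes higher. Complex II and cytochrome c, which are part of the chain but not of the symbol rule, had 3 of 8 genes higher and a median of 0.26. The assembly and regulation factors outside the rule had 7 of 23 higher, 2 lower and a median of 0.25. Cytosolic ribosome genes had a median of 0.01. The 13 mitochondrial-encoded protein genes had a median of 0.05, with 1 higher and 1 lower. The complex II and assembly lists thus had medians near the 0.28 of the members in this type. The mitochondrial ribosome and glycolysis lists had higher medians. Lower medians were found for the tricarboxylic acid cycle, cytosolic ribosome and mitochondrial-encoded lists.

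In neutrophils the cytosolic ribosome list had 46 of 84 genes lower and 0 higher (background 30.0% and 7.66%). Its median was -0.36, below that of the members. Glycolysis genes had a median of 0.07 in neutrophils. The list of 12 regulators of mitochondrial biogenesis, which includes the genes of NRF-1, GABP and the PGC-1 coactivators, had few genes with enough UMIs. Of these, 4 of 6 were lower in neutrophils (background 30.0%) and 3 of 7 in classical monocytes (background 21.1%). In B cells the cytosolic ribosome list had a median of 0.21.

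The nuclear members were also set against the 13 protein genes of the mitochondrial genome, which supply the core subunits of the same complexes. The ratio of nuclear to mitochondrial-encoded UMIs was highest in neutrophils, at 1.83 in the DEP-exposed and 1.76 in the control library, and lowest in B cells, at 0.365 and 0.307. In the DEP-exposed and control libraries, classical monocytes had 0.995 and 0.888, NK cells 0.850 and 0.782, type 1 dendritic cells 0.805 and 0.759, nonclassical monocytes 0.719 and 0.619, alveolar macrophages 0.642 and 0.593, interstitial macrophages 0.626 and 0.543 and T cells 0.483 and 0.491. Neutrophils thus combined the lowest nuclear level with a still lower mitochondrial-encoded level, 4707.5 CPM in the DEP-exposed and 5439.2 CPM in the control library, while B cells had 38333 and 44555 CPM. Cells with over 10% mitochondrial UMIs had been removed, a limit that acts directly on this ratio.

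**Figure D5:**
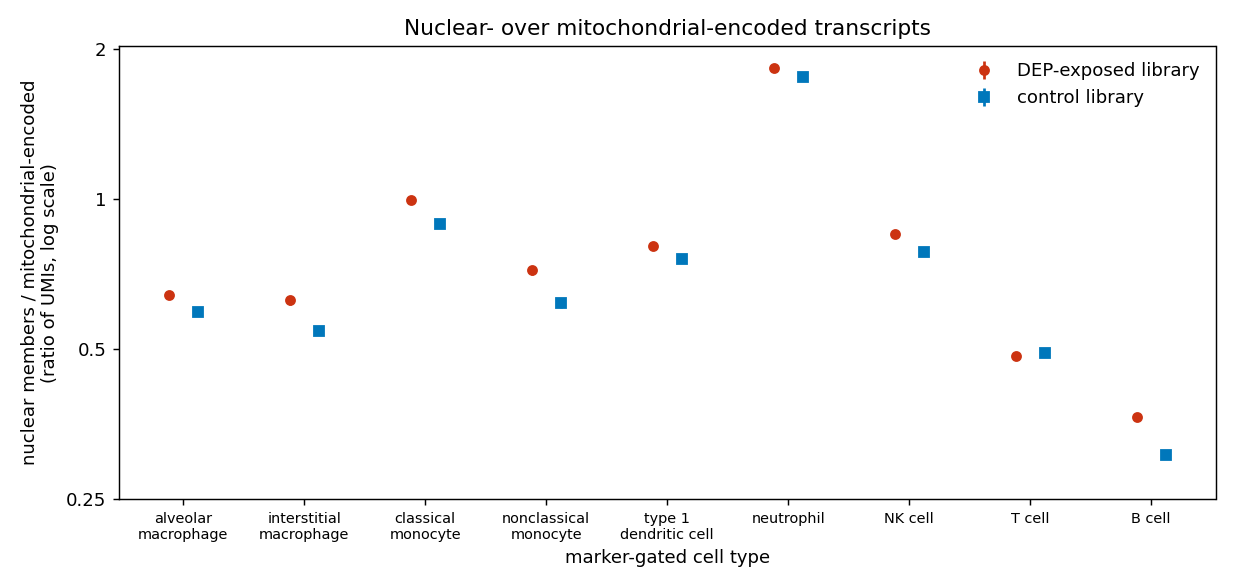
Ratio of UMIs of the 82 nuclear members to UMIs of the 13 mitochondrial-encoded protein genes (vertical axis, log scale) in 9 cell types, with the DEP-exposed library as circles on the left and the control library as squares on the right; exact 95% counting intervals are smaller than the symbols. Neutrophils are highest, at 1.83 and 1.76, and B cells lowest, at 0.365 and 0.307.

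The ratio was higher in the DEP-exposed library in 8 of the 9 types. The log2 difference was 0.25 in B cells, 0.22 in nonclassical monocytes, 0.20 in interstitial macrophages, 0.16 in classical monocytes, 0.12 in NK cells, 0.11 in alveolar macrophages, 0.0848 in type 1 dendritic cells and 0.0587 in neutrophils, and -0.0223 in T cells. In B cells the mitochondrial-encoded genes differed more than the nuclear members, with a median log2 ratio of -0.21. In neutrophils the direction was not kept: without cells holding B, T, NK or epithelial marker UMIs it was -0.27, with the strict gate -0.12 and without a mitochondrial limit -0.41. In T cells it was not kept either, at 0.022 with the strict gate, 0.029 with each cell weighing the same and 0.042 without cycling cells.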

How the data were processed

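The authors deposited raw UMI counts for each gene and barcode of called cells, from Cell Ranger on mm10, per the submitters' processing notes and the file headers. The notes give version 3.1.3 and the headers give 3.1.0. A UMI counts a molecule once however often it was sequenced, and the 3′ kit reads transcript ends, so isoforms that share an end are not separated. Depth was 67030914 UMIs in the DEP-exposed and 62047730 UMIs in the control library.

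Barcodes with at least 500 UMIs, 200 genes and at most 10% mitochondrial UMIs were kept. Cells were typed by marker gates, not clustered. No doublet caller was run, and the gate's margin of 2 markers does not remove every cell that holds UMIs of another type's markers. UMIs were summed per type and library, with CPM and exact Poisson 95% intervals. Log2 ratios (0.5 added to each sum) have exact conditional binomial intervals, and the DEP-exposed over control difference of the nuclear to mitochondrial-encoded ratio was judged against a normal approximation instead. No test was possible with 1 library per group. The code was tested on simulated data. Python 3.11.15, NumPy 2.4.6, SciPy 1.17.1, pandas 2.3.3 and Matplotlib 3.10.9 were used, with GENCODE M21 and RefSeq (GRCm38.p6) for annotation and promoters.

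Genes named are, per group, the 3 with the largest and the 1 with the smallest summed count, all members of isoform families, and the 2 highest and 2 lowest by the interval bound nearest to 0 in classical monocytes, alveolar macrophages, interstitial macrophages and neutrophils. The glycolysis list has 15 entries for 14 symbols because Aldoa occurs on 2 of them. Members, lists and markers were chosen with earlier results of these data known. The alternatives were other gates, cell filters, weights, denominators, folds and count minimums, and cell subsets. The cells of types with fewer than 50 cells in a library were not compared.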

Additional observations from a re-analysis of the deposited data

Results flagged for a closer look

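The summed level of the 82 genes moved in opposite directions in 2 cell types under the same comparison of DEP-exposed and control cells. The log2 ratio was 0.2086 in classical monocytes and -0.1498 in neutrophils. The median log2 ratio of all genes was -0.0346 in classical monocytes and -0.1479 in neutrophils, beside member medians of 0.2794 and -0.2244. In neutrophils the summed member ratio was thus near the median of all genes. The difference between the types was not tested, since each group holds 1 library.

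Cox6a2, the heart and muscle isoform of cytochrome c oxidase subunit 6A, is not among the members, and of the types gated its level was highest in plasmacytoid dendritic cells, a type too small for the comparisons. They held 318 of the 511 Cox6a2 UMIs of the DEP-exposed library and 253 of the 504 of the control library. The level there was 1381 CPM (318 UMIs in 24 DEP-exposed cells) and 1393 CPM (253 UMIs in 20 control cells), with exact 95% intervals of 1233 to 1541 CPM and 1226 to 1575 CPM. NK cells had 20.5 CPM in the DEP-exposed library (64 UMIs in 11 of 635 cells) and 8.25 CPM in the control library (27 UMIs in 11 of 702 cells). B cells had 0.273 CPM in the DEP-exposed and 0.519 CPM in the control library. A UMI of Cox6a2 was present in 21 of the 24 DEP-exposed and 18 of the 20 control plasmacytoid dendritic cells, and in 2 of 1786 DEP-exposed and 4 of 1989 control B cells. The median depth was 10026 UMIs in DEP-exposed and 9155.5 UMIs in control plasmacytoid dendritic cells, and 3667.5 and 3348 UMIs in B cells.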

How the results depend on the processing

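With 1 library per group the spread between animals is unknown. No paired analysis was possible because each group holds 1 library. The results were recomputed under 13 other settings and 2 more chosen after seeing the data, namely libraries thinned to equal UMIs and neutrophils without marker UMIs of other cells. Of 2356 recomputed levels, ratios and member counts, 1719 stayed within their counting interval or, for counts, within 1.5 times, 625 moved further and 12 were reversed. Under the alternatives run, the log2 ratio of all members kept its sign in every type except T cells. It ranged from 0.13 to 0.21 in classical monocytes, from -0.17 to -0.10 in neutrophils and from -0.034 to 0.046 in T cells. Summed levels of all members changed by a factor of 0.914 to 1.09, and by 1.05 to 1.71 with the changed denominator. Of 3425 recomputed log2 ratios of named genes, 77 left their interval, and 0 of those past the called size were reversed. With a minimum of 1000 UMIs per cell, no value moved that far. The strict gate left fewer than 50 alveolar macrophages, interstitial macrophages and type 1 dendritic cells in a library and gave no value for them. Every other moved value follows, with log2 ratios and counts as DEP-exposed over control and pairs of levels as DEP-exposed and control, and the cause was not tested. Counts of members below stand without a background unless it is given here or in the results above. Such counts cannot tell a shift of the members from a shift of all genes.

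With the strict gate, the log2 ratio of nuclear over mitochondrial-encoded UMIs was 0.14 in classical monocytes, -0.12 in neutrophils (reversed), 0.14 in NK cells, 0.022 in T cells (reversed) and 0.32 in B cells. Summed members had log2 ratios of 0.18 in classical monocytes, 0.040 in nonclassical monocytes, -0.11 in neutrophils, -0.0025 in T cells and 0.067 in B cells. Complex I had log2 ratios of 0.21 in classical monocytes, 0.063 in nonclassical monocytes, -0.13 in neutrophils, -0.022 in T cells and 0.064 in B cells. Complex III had log2 ratios of -0.20 in neutrophils. Complex IV had log2 ratios of 0.13 in classical monocytes, -0.047 in nonclassical monocytes (reversed), -0.0087 in neutrophils, 0.042 in T cells and 0.080 in B cells. Complex V had log2 ratios of 0.043 in nonclassical monocytes, -0.16 in neutrophils and 0.065 in B cells. Members higher numbered 7 in nonclassical monocytes, 1 in neutrophils, 2 in NK cells, 1 in T cells and 1 in B cells. Members lower numbered 2 in nonclassical monocytes, 13 in neutrophils, 2 in T cells and 2 in B cells. Members higher than in other types numbered 8 in nonclassical monocytes and 10 in T cells. Members lower than in other types numbered 7 in nonclassical monocytes and 2 in NK cells. Complex I came to, in CPM, 7086 and 6133 (classical monocytes), 4787 and 4583 (nonclassical monocytes), 2539 and 2776 (neutrophils), 4455 and 4524 (T cells) and 4145 and 3966 (B cells). Complex III came to, in CPM, 2586 and 2359.8 (classical monocytes), 1878 and 1652 (nonclassical monocytes), 806 and 924 (neutrophils) and 1785 and 1771 (T cells). Complex IV came to, in CPM, 6646 and 6062 (classical monocytes), 4383 and 4529.5 (nonclassical monocytes), 2895 and 2913 (neutrophils), 4398 and 4271 (T cells) and 3992 and 3777 (B cells). The summed members came to, in CPM, 23313 and 20569 (classical monocytes), 15706 and 15275 (nonclassical monocytes), 8638 and 9294 (neutrophils), 20496 and 19651 (NK cells), 15339.5 and 15366 (T cells) and 14001 and 13365 (B cells). Nuclear over mitochondrial-encoded UMIs came to 0.998 and 0.903 (classical monocytes), 0.665 and 0.581 (nonclassical monocytes), 2.40 and 2.62 (neutrophils), 0.869 and 0.787 (NK cells), 0.461 and 0.454 (T cells) and 0.381 and 0.305 (B cells). Complex V came to, in CPM, 4512 and 4379 (nonclassical monocytes), 2329 and 2608 (neutrophils), 6119.8 and 5813 (NK cells), 4569.5 and 4673 (T cells) and 4164 and 3982 (B cells).

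With the loose gate, nuclear over mitochondrial-encoded UMIs had a log2 ratio of 0.088 in alveolar macrophages, 0.33 in nonclassical monocytes and 0.15 in NK cells. For summed members the log2 ratio was -0.10 in neutrophils. For complex I the log2 ratio was -0.12 in neutrophils. For complex III the log2 ratio was -0.17 in neutrophils. For complex IV the log2 ratio was -0.015 in neutrophils. For complex V the log2 ratio was -0.15 in neutrophils. Members higher numbered 2 in alveolar macrophages and 5 in interstitial macrophages. Members lower numbered 2 in interstitial macrophages and 6 in neutrophils. In CPM, complex I reached 6518 and 6041 (alveolar macrophages), 7045 and 5925 (classical monocytes), 2748 and 2985 (neutrophils), 6233 and 5828 (NK cells) and 4185 and 4114 (B cells). In CPM, complex III reached 2338 and 2227 (alveolar macrophages), 2472 and 2275 (classical monocytes) and 896 and 1011 (neutrophils). In CPM, complex IV reached 6485 and 6152 (alveolar macrophages), 6725 and 5891 (classical monocytes), 3066 and 3099 (neutrophils) and 5999 and 5768 (NK cells). In CPM, complex V reached 6241 and 6066 (alveolar macrophages), 4710.2 and 4386 (interstitial macrophages), 6701 and 5865 (classical monocytes) and 2578 and 2865 (neutrophils). CPM values of the summed members were 21755 and 20642 (alveolar macrophages), 16643 and 15469.7 (interstitial macrophages), 23109.7 and 20092 (classical monocytes), 17153 and 15196 (nonclassical monocytes), 9364 and 10040.3 (neutrophils), 20552 and 19578 (NK cells) and 14128 and 13732 (B cells). The UMI ratio, nuclear over mitochondrial-encoded, was 0.644 and 0.606 (alveolar macrophages), 0.963 and 0.851 (classical monocytes), 0.781 and 0.621 (nonclassical monocytes), 1.41 and 1.36 (neutrophils), 0.845 and 0.759 (NK cells), 0.485 and 0.495 (T cells) and 0.374 and 0.315 (B cells). In CPM, complex I assembly factors reached 74.8 and 80.5 (neutrophils).

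Without a mitochondrial limit, the log2 ratio of nuclear over mitochondrial-encoded UMIs was 0.071 in alveolar macrophages, 0.084 in classical monocytes, 0.26 in nonclassical monocytes, 0.14 in type 1 dendritic cells, -0.41 in neutrophils (reversed), 0.097 in NK cells, -0.0068 in T cells and 0.20 in B cells. With complex IV, CPM was 6506 and 6194 (alveolar macrophages). Levels in CPM for the summed members were 21826 and 20790.2 (alveolar macrophages), 16308 and 14947 (interstitial macrophages), 23309 and 20270.2 (classical monocytes) and 13883 and 13578 (B cells). Nuclear over mitochondrial-encoded UMIs came to 0.593 and 0.564 (alveolar macrophages), 0.546 and 0.477 (interstitial macrophages), 0.920 and 0.868 (classical monocytes), 0.699 and 0.582 (nonclassical monocytes), 0.768 and 0.695 (type 1 dendritic cells), 1.19 and 1.59 (neutrophils), 0.827 and 0.773 (NK cells), 0.476 and 0.478 (T cells) and 0.338 and 0.295 (B cells).

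With a mitochondrial limit of 5%, nuclear over mitochondrial-encoded UMIs had a log2 ratio of 0.062 in alveolar macrophages, 0.12 in type 1 dendritic cells, -0.085 in T cells and 0.085 in B cells. Summed members had log2 ratios of 0.062 in alveolar macrophages, -0.034 in T cells and 0.0058 in B cells. For complex I the log2 ratio was -0.016 in B cells. For complex IV the log2 ratio was 0.018 in B cells. For complex V the log2 ratio was 0.0038 in B cells. Members higher numbered 1 in T cells. Members lower numbered 2 in B cells. Complex I came to, in CPM, 6697 and 6256 (alveolar macrophages), 4702 and 4897 (T cells) and 4169 and 4215 (B cells). Complex III came to, in CPM, 2393 and 2314 (alveolar macrophages) and 1561 and 1528 (B cells). Complex IV came to, in CPM, 6659.9 and 6364 (alveolar macrophages), 4619 and 4615 (T cells) and 4004 and 3953 (B cells). Complex V came to, in CPM, 6365 and 6264 (alveolar macrophages), 4873 and 5057 (T cells) and 4239.8 and 4229 (B cells). The summed members came to, in CPM, 22296 and 21355 (alveolar macrophages), 16953 and 15291 (interstitial macrophages), 23612 and 20412 (classical monocytes), 20815 and 19944 (NK cells), 16176 and 16556 (T cells) and 14117 and 14060.4 (B cells). The UMI ratio, nuclear over mitochondrial-encoded, was 0.712 and 0.682 (alveolar macrophages), 0.702 and 0.613 (interstitial macrophages), 1.03 and 0.920 (classical monocytes), 0.788 and 0.667 (nonclassical monocytes), 0.842 and 0.773 (type 1 dendritic cells), 2.17 and 2.05 (neutrophils), 0.900 and 0.818 (NK cells), 0.516 and 0.548 (T cells) and 0.411 and 0.387 (B cells).

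With each cell weighing the same, the log2 ratio of nuclear over mitochondrial-encoded UMIs was 0.073 in alveolar macrophages, 0.27 in interstitial macrophages, 0.11 in classical monocytes, 0.30 in nonclassical monocytes, 0.052 in type 1 dendritic cells, 0.010 in neutrophils, 0.083 in NK cells, 0.029 in T cells (reversed) and 0.31 in B cells. For summed members the log2 ratio was 0.18 in interstitial macrophages, 0.19 in classical monocytes, 0.043 in type 1 dendritic cells, -0.13 in neutrophils, 0.0089 in T cells (reversed) and 0.056 in B cells. Complex I had log2 ratios of -0.0083 in T cells and 0.048 in B cells. Complex IV had log2 ratios of 0.16 in classical monocytes, 0.024 in type 1 dendritic cells and 0.045 in T cells. Complex V had log2 ratios of 0.22 in interstitial macrophages and -0.012 in T cells. Members higher numbered 19 in interstitial macrophages and 1 in T cells. Members lower numbered 1 in NK cells. Members higher than in other types numbered 3 in interstitial macrophages. Members lower than in other types numbered 17 in T cells. In CPM, complex I reached 6668 and 6157 (alveolar macrophages), 4939.6 and 4452 (interstitial macrophages), 7071 and 5971 (classical monocytes), 5275 and 4992 (type 1 dendritic cells), 6133 and 5846 (NK cells), 4594 and 4621 (T cells) and 4084 and 3951 (B cells). In CPM, complex V reached 6292 and 6209 (alveolar macrophages), 4648 and 3987 (interstitial macrophages), 6677 and 5860.2 (classical monocytes), 5639 and 5474 (type 1 dendritic cells), 5927 and 5685 (NK cells), 4705 and 4745 (T cells) and 4124 and 3974 (B cells). CPM values of the summed members were 22117 and 21066 (alveolar macrophages), 16261 and 14322 (interstitial macrophages), 23102 and 20261 (classical monocytes), 16605 and 15199 (nonclassical monocytes), 18351 and 17810.0 (type 1 dendritic cells), 8690.0 and 9509.8 (neutrophils), 19994 and 19389.7 (NK cells), 15724 and 15627 (T cells) and 13771 and 13243 (B cells). Nuclear over mitochondrial-encoded UMIs came to 0.621 and 0.591 (alveolar macrophages), 0.601 and 0.498 (interstitial macrophages), 0.941 and 0.875 (classical monocytes), 0.691 and 0.561 (nonclassical monocytes), 0.754 and 0.728 (type 1 dendritic cells), 2.26 and 2.25 (neutrophils), 0.816 and 0.771 (NK cells), 0.475 and 0.465 (T cells) and 0.363 and 0.292 (B cells). In CPM, complex III reached 1889 and 1592 (interstitial macrophages), 1875 and 1971 (NK cells) and 1824 and 1804 (T cells). In CPM, complex IV reached 4649.9 and 4189 (interstitial macrophages), 6684 and 5968 (classical monocytes), 4804 and 4511 (nonclassical monocytes), 5308 and 5219 (type 1 dendritic cells), 5875 and 5747 (NK cells), 4464 and 4327 (T cells) and 3901 and 3719 (B cells).

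Without the 1% of cells with the most UMIs, nuclear over mitochondrial-encoded UMIs had a log2 ratio of 0.16 in interstitial macrophages, 0.17 in nonclassical monocytes, 0.015 in neutrophils, -0.00098 in T cells and 0.28 in B cells. Log2 ratios were, for summed members, 0.096 in interstitial macrophages, -0.13 in neutrophils, -0.0059 in T cells and 0.050 in B cells. For complex I the log2 ratio was 0.037 in B cells. For complex V the log2 ratio was -0.18 in neutrophils and -0.027 in T cells. Members higher numbered 2 in T cells. With complex V, CPM was 4541 and 4229 (interstitial macrophages), 2325 and 2629 (neutrophils), 6103 and 5775 (NK cells), 4717 and 4805 (T cells) and 4165 and 4016 (B cells). Levels in CPM for the summed members were 16179.5 and 15137 (interstitial macrophages), 8569.6 and 9356 (neutrophils), 20334 and 19493 (NK cells), 15736 and 15799.6 (T cells) and 13859 and 13389.5 (B cells). The UMI ratio, nuclear over mitochondrial-encoded, was 0.610 and 0.547 (interstitial macrophages), 2.05 and 2.03 (neutrophils), 0.837 and 0.761 (NK cells), 0.471 and 0.471 (T cells) and 0.361 and 0.296 (B cells). With complex I, CPM was 2514 and 2804 (neutrophils), 6190.5 and 5822 (NK cells), 4581 and 4674 (T cells) and 4099 and 3996 (B cells). With complex IV, CPM was 2869 and 2921 (neutrophils), 5931 and 5767 (NK cells), 4488 and 4385 (T cells) and 3920.1 and 3768 (B cells). With complex III, CPM was 1813 and 1806 (T cells).

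With mitochondrial-encoded and cytosolic ribosomal genes left out of the denominator, summed members had log2 ratios of 0.018 in type 1 dendritic cells, -0.17 in neutrophils, 0.046 in T cells (reversed) and 0.10 in B cells. Complex I had log2 ratios of 0.048 in type 1 dendritic cells, 0.025 in T cells (reversed) and 0.080 in B cells. Complex III had log2 ratios of 0.067 in T cells and 0.11 in B cells. Complex IV had log2 ratios of 0.018 in type 1 dendritic cells, 0.083 in T cells and 0.11 in B cells. Complex V had log2 ratios of 0.010 in type 1 dendritic cells, 0.022 in T cells (reversed) and 0.10 in B cells. Members higher numbered 4 in type 1 dendritic cells and 2 in T cells. Members lower numbered 1 in type 1 dendritic cells. Members higher than in other types numbered 3 in interstitial macrophages, 28 in T cells and 5 in B cells. Members lower than in other types numbered 6 in alveolar macrophages, 20 in interstitial macrophages, 3 in T cells and 22 in B cells. Complex I came to, in CPM, 8000.4 and 7363 (alveolar macrophages), 6203 and 5725 (interstitial macrophages), 9345 and 7882 (classical monocytes), 6389 and 5713 (nonclassical monocytes), 7271 and 7034 (type 1 dendritic cells), 2656 and 3040.1 (neutrophils), 8231 and 7774 (NK cells), 7985 and 7849 (T cells) and 6321 and 5981 (B cells). Complex I assembly factors came to, in CPM, 217 and 186 (alveolar macrophages), 140.2 and 138 (interstitial macrophages), 218 and 177 (classical monocytes), 168 and 167 (nonclassical monocytes), 221 and 204 (type 1 dendritic cells), 231 and 186 (NK cells), 234 and 217 (T cells) and 216 and 197 (B cells). Complex III came to, in CPM, 2860.1 and 2723 (alveolar macrophages), 2327 and 2088 (interstitial macrophages), 3266 and 3039 (classical monocytes), 2503 and 2069.9 (nonclassical monocytes), 2674 and 2762 (type 1 dendritic cells), 841 and 1008 (neutrophils), 2554 and 2646 (NK cells), 3133 and 2990.1 (T cells) and 2359 and 2182 (B cells). Complex IV came to, in CPM, 7949.7 and 7506 (alveolar macrophages), 5919.9 and 5462 (interstitial macrophages), 8885 and 7811 (classical monocytes), 6405 and 5852 (nonclassical monocytes), 7395 and 7306 (type 1 dendritic cells), 3017 and 3157 (neutrophils), 7908 and 7695 (NK cells), 7829 and 7393 (T cells) and 6060.0 and 5600.4 (B cells). Complex V came to, in CPM, 7613 and 7403 (alveolar macrophages), 5768 and 5232 (interstitial macrophages), 8811 and 7695 (classical monocytes), 6102 and 5589.9 (nonclassical monocytes), 7746 and 7691 (type 1 dendritic cells), 2456 and 2866 (neutrophils), 8168 and 7791 (NK cells), 8255 and 8129.8 (T cells) and 6448 and 6004 (B cells). The summed members came to, in CPM, 26641 and 25181 (alveolar macrophages), 20358 and 18644 (interstitial macrophages), 30524 and 26604 (classical monocytes), 21567 and 19391 (nonclassical monocytes), 25308 and 24998 (type 1 dendritic cells), 9042 and 10152 (neutrophils), 27093 and 26093 (NK cells), 27435 and 26578 (T cells) and 21404 and 19964 (B cells).

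Without cycling cells, nuclear over mitochondrial-encoded UMIs had a log2 ratio of 0.16 in interstitial macrophages, 0.12 in type 1 dendritic cells, 0.031 in neutrophils and 0.042 in T cells (reversed). For summed members the log2 ratio was 0.019 in T cells (reversed). For complex I the log2 ratio was -0.0026 in T cells. For complex IV the log2 ratio was 0.058 in T cells. For complex V the log2 ratio was -0.00066 in T cells. Members higher numbered 2 in T cells. Members lower numbered 2 in interstitial macrophages. Members lower than in other types numbered 18 in T cells. In CPM, complex IV reached 4671 and 4372 (interstitial macrophages), 5284 and 5134 (type 1 dendritic cells), 5911 and 5776 (NK cells) and 4463 and 4287 (T cells). In CPM, complex V reached 4488 and 4184 (interstitial macrophages), 5540.5 and 5349 (type 1 dendritic cells), 6082 and 5779.8 (NK cells) and 4690.4 and 4692 (T cells). CPM values of the summed members were 16038 and 14899 (interstitial macrophages), 18156 and 17470.4 (type 1 dendritic cells), 20267 and 19523 (NK cells), 15652 and 15451 (T cells) and 13942 and 13545 (B cells). The UMI ratio, nuclear over mitochondrial-encoded, was 0.602 and 0.537 (interstitial macrophages), 0.780 and 0.717 (type 1 dendritic cells), 1.83 and 1.79 (neutrophils), 0.829 and 0.760 (NK cells), 0.469 and 0.456 (T cells) and 0.363 and 0.303 (B cells). In CPM, complex I reached 5202 and 4884 (type 1 dendritic cells), 6163 and 5839.6 (NK cells) and 4551 and 4559 (T cells). In CPM, complex III reached 1811 and 1784 (T cells).

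Without classical monocytes that held Lrg1, Saa3 or Lcn2, the log2 ratio of nuclear over mitochondrial-encoded UMIs was 0.059 in classical monocytes. Log2 ratios were, for summed members, 0.13 in classical monocytes. Complex I had log2 ratios of 0.15 in classical monocytes. Complex III had log2 ratios of 0.066 in classical monocytes. Complex IV had log2 ratios of 0.11 in classical monocytes. Complex V had log2 ratios of 0.15 in classical monocytes. Members higher numbered 9 in classical monocytes. With complex I, CPM was 6671 and 6017 (classical monocytes). With complex III, CPM was 2435 and 2326 (classical monocytes). With complex IV, CPM was 6425 and 5966 (classical monocytes). With complex V, CPM was 6479 and 5850.4 (classical monocytes). Levels in CPM for the summed members were 22178 and 20294 (classical monocytes). Nuclear over mitochondrial-encoded UMIs came to 0.923 and 0.886 (classical monocytes).

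Without neutrophils that held lymphocyte or epithelial marker UMIs, nuclear over mitochondrial-encoded UMIs had a log2 ratio of -0.27 in neutrophils (reversed). Complex III came to, in CPM, 794 and 924 (neutrophils). Complex IV came to, in CPM, 2870.2 and 2921 (neutrophils). Complex V came to, in CPM, 2309.6 and 2650.1 (neutrophils). The summed members came to, in CPM, 8544 and 9406 (neutrophils). The UMI ratio, nuclear over mitochondrial-encoded, was 1.93 and 2.33 (neutrophils).

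With a fold of 1.5, members higher numbered 0 in alveolar macrophages, 0 in interstitial macrophages, 3 in classical monocytes, 1 in nonclassical monocytes, 2 in type 1 dendritic cells, 0 in NK cells and 0 in B cells. Members lower numbered 0 in interstitial macrophages, 1 in nonclassical monocytes, 3 in neutrophils, 0 in T cells and 0 in B cells. Members higher than in other types numbered 24 in alveolar macrophages, 2 in interstitial macrophages, 11 in classical monocytes, 2 in type 1 dendritic cells, 6 in NK cells and 1 in T cells. Members lower than in other types numbered 1 in alveolar macrophages, 3 in interstitial macrophages, 2 in classical monocytes, 3 in nonclassical monocytes, 1 in type 1 dendritic cells, 2 in NK cells, 4 in T cells and 13 in B cells.

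With a minimum of 200 UMIs per gene, members higher numbered 1 in alveolar macrophages (background 2.44%), 6 in interstitial macrophages (background 8.74%), 6 in nonclassical monocytes (background 7.94%), 2 in type 1 dendritic cells (background 10.5%) and 0 in B cells (background 2.03%). Members lower numbered 0 in interstitial macrophages (background 11.4%) and 1 in nonclassical monocytes (background 12.9%).

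With libraries thinned to equal UMIs, members lower numbered 3 in interstitial macrophages. Complex V came to, in CPM, 6680.0 and 5874 (classical monocytes).

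With Ndufa4 counted in complex IV, in CPM, complex I reached 6086 and 5612 (alveolar macrophages), 4681 and 4336 (interstitial macrophages), 6726 and 5675 (classical monocytes), 4783 and 4288 (nonclassical monocytes), 5189 and 4845 (type 1 dendritic cells), 2458 and 2778 (neutrophils), 5702 and 5398 (NK cells), 4347 and 4479 (T cells) and 3899 and 3862 (B cells). In CPM, complex IV reached 7089 and 6721 (alveolar macrophages), 5194 and 4746 (interstitial macrophages), 7289 and 6304 (classical monocytes), 5412 and 5008 (nonclassical monocytes), 5739 and 5449.9 (type 1 dendritic cells), 2942 and 3050.1 (neutrophils), 6583 and 6367 (NK cells), 4925 and 4888 (T cells) and 4197 and 4066 (B cells).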
